A study of Homo sapiens with 18 samples.

Results

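The Rh30 libraries with the *DNAJC17* deletion allele were compared with the Rh30 knockdown libraries. Both groups carried the same sgRNA, so the comparison covers 6 of the 18 libraries of the series, with 3 in each group, chosen by cell line, genotype and sgRNA as labelled. Rh30 is a patient-derived alveolar rhabdomyosarcoma line, a tumor type with features of developing skeletal muscle. All cells carried dCas9-KRAB, a catalytically dead Cas9 fused to a transcriptional repressor, which silences a gene where an sgRNA leads it (CRISPRi). The knockdown group was parental Rh30 with sgDNAJC17. The other group, genotype 3xFLAG-DNAJC17-dRRM and called ΔRRM here, had also been transduced with a lentiviral cDNA that encodes DNAJC17 without its RNA recognition motif (RRM), placed in an EF1 vector and selected in hygromycin. Both were kept in puromycin for 72 hours after the sgRNA was delivered. Parental Rh30 with a control sgRNA (sgCTL, 3 libraries) served as the reference for what the knockdown had changed, and the same 3 groups of ES8, a Ewing sarcoma line, served as the second line. No ΔRRM library with sgCTL was among the samples, so the effects of the transgene, of its selection and of the repair of the knockdown cannot be told apart in this comparison.

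DNAJC17 is a J-domain protein. Proteins of this family bind HSP70 chaperones through the J-domain, stimulate their ATPase and so direct them to particular clients, and DNAJC17 is a nuclear member that associates with the spliceosome. An RRM is a fold that binds RNA in many splicing factors. The study asked which domains of DNAJC17 its function in the cell requires.

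Libraries held between 35342393 and 48245989 counts on genes, the lowest being ΔRRM replicate C. Levels below are CPM, the counts of a gene per 1000000 counts of its library, after TMM scaling over the 9 Rh30 libraries, which sets library sizes on the assumption that most genes do not change. Replicates of a group differed by more than counting error, but cells were described as plated in triplicate, so p-values measure the spread between these samples, which may be technical. The 10 most abundant genes took 8.28% to 8.60% of counts in ΔRRM libraries and 7.21% to 7.45% in knockdown libraries. In a principal component analysis of 15882 genes, the first component held 56.1% of the variance and put ΔRRM libraries between -52.3 and -46.1 and all 6 parental libraries, sgCTL and knockdown alike, between 11.996 and 36.2. The second component held 15.8% and put knockdown libraries between -29.3 and -17.0, sgCTL between 18.6 and 24.7, and ΔRRM between them at 1.87 to 5.48. The ΔRRM population thus lay apart from both parental groups along the larger axis, and between them along the axis that separated the sgRNAs.

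**Figure D1:**
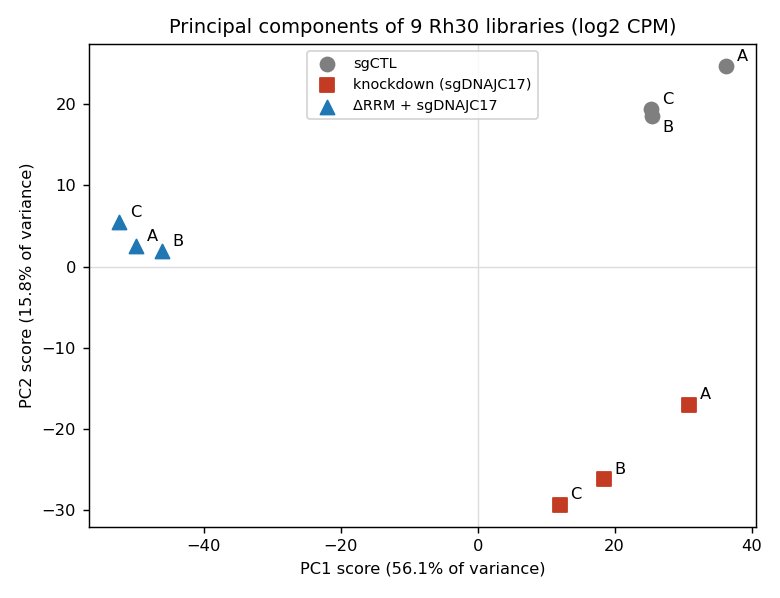
Scores of the 9 Rh30 libraries on the first 2 principal components of log2 CPM, with replicate letters beside the points. The 3 ΔRRM libraries sit at the far left (-52.3 to -46.1 on the first component) and between the knockdown and sgCTL libraries on the second.

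*DNAJC17* (ENSG00000104129; chromosome 15, 40765155 to 40807478, minus strand, GRCh38) held 474, 522 and 461 counts in the sgCTL libraries A, B and C. The knockdown libraries held 113, 81 and 104 counts. The ΔRRM libraries held 13437, 13947 and 9849 counts. All 3 groups were apart without overlap, and the ΔRRM level of 324 ± 11.6 CPM (SD, n = 3) stood 31.8-fold above sgCTL. The log2 change against knockdown was 7.17 (SE 0.11, edgeR adjusted p = 6.15e-71). With 3 libraries a group, the exact two-sided permutation test of this single gene gave p = 0.1, the smallest it allows. Counts per gene do not separate the transgene from the endogenous transcript, so silencing of the endogenous gene was not visible in ΔRRM cells. *ZFYVE19*, a neighbouring gene that starts under 50 kb from *DNAJC17*, read 10.8, 11.6 and 11.8 CPM in sgCTL, 6.04, 7.22 and 6.15 in knockdown and 4.05, 5.004 and 4.42 in ΔRRM libraries, lower in both groups with sgDNAJC17. Of 7 genes that start in that distance, 2 were tested in ΔRRM against knockdown. Their median log2 change was 0.04, so the other tested gene was not lower. All 7 summed to 11.0 to 12.3 CPM in sgCTL libraries, most of it from *ZFYVE19*.

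A gene was called changed at an edgeR adjusted p under 0.05 with a fold change of at least 2. Of 15309 genes tested, 677 were called higher in ΔRRM than in knockdown cells (4.42%) and 515 lower (3.36%). The adjusted p alone was passed by 4505 genes higher (29.4%) and 4676 lower (30.5%), and the median log2 change of all tested genes was -0.01. Scaling by library size alone shifted that median to -0.17 and turned the split to 391 higher and 850 lower. Most called genes had not been called in knockdown against sgCTL. Of the 677 higher genes, 53 (7.83%) had been called lower in knockdown than in sgCTL cells, against 0.786% of all genes tested there. Of the 515 lower genes, 47 (9.13%) had been called higher, against 0.767%. Against sgCTL, 414 of the 677 (61.2%) and 277 of the 515 (53.8%) were also called in the same direction. Another 218 (32.2%) and 192 (37.3%) were called in neither comparison with sgCTL. Their median log2 changes in knockdown against sgCTL were -0.48 and 0.44, opposite in direction and under the fold required. These comparisons share libraries, so the counts describe the calls and were not tested. In ES8, ΔRRM cells differed from knockdown cells by 82 genes called higher (0.48%) and 254 lower (1.49%) of 17099 tested.

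The genes with the largest decreases in ΔRRM cells included surface, matrix and muscle genes, and none of the 12 named here had been called in knockdown against sgCTL. *SPN*, which encodes the leukocyte surface protein CD43, read 18.1, 16.1 and 16.5 CPM in sgCTL, 21.2, 20.1 and 17.9 in knockdown and 2.82, 1.63 and 2.21 in ΔRRM libraries. The ΔRRM values were all below the lowest parental value, with a log2 change against knockdown of -3.15 (SE 0.13, edgeR adjusted p = 5.2e-37). *MFAP5*, a component of elastic microfibrils, read 21.7, 23.9 and 21.1 CPM in knockdown and 3.16, 2.76 and 2.33 in ΔRRM libraries, a log2 change of -3.00. *MYMK* encodes myomaker, a membrane protein needed for myoblast fusion, and read 5.003, 5.07 and 5.72 CPM in knockdown and 0.766, 0.685 and 1.07 in ΔRRM libraries, a log2 change of -2.67. *TGFB2*, a ligand of the TGF-beta receptors, read 28.2, 25.7 and 24.1 CPM in sgCTL, 36.2, 36.4 and 36.7 in knockdown and 6.62, 8.05 and 7.95 in ΔRRM libraries. Its log2 change against knockdown was -2.27. In ES8 the change was 0.55 (edgeR adjusted p = 0.202), at 20, 43 and 46 counts in knockdown and 69, 54 and 57 in ΔRRM libraries. The test of that line difference gave an edgeR adjusted p of 1.3e-07. *MXRA5*, a matrix remodelling gene, and *SCIN*, which encodes an actin-severing protein, had log2 changes of -2.20 and -2.33. The other genes named by the same rule, *OSBP2*, *ZNF853*, *MAT1A*, *SH3TC2*, *LINC01602* and *DNAH6*, ranged from -2.66 to -2.21. In all 12 the ΔRRM libraries lay below all knockdown libraries, which follows from the choice of the largest decreases and is given as a description.

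Beside *DNAJC17*, the largest increases were of non-coding and tissue-restricted genes. *CSRP3*, which encodes the muscle LIM protein of the sarcomere, read 7.16, 8.17 and 8.35 CPM in sgCTL, 4.53, 4.99 and 3.902 in knockdown and 22.6, 21.1 and 23.1 in ΔRRM libraries. It was thus higher in ΔRRM cells than in both parental groups, by 2.32 log2 against knockdown (SE 0.11, edgeR adjusted p = 7.84e-33) and 1.51 against sgCTL. *PKIB*, an inhibitor of protein kinase A, read 4.48, 4.52 and 4.805 CPM in sgCTL, 2.21, 2.18 and 2.44 in knockdown and 11.4, 10.8 and 11.7 in ΔRRM libraries. The long non-coding RNA *LINC01915* had a log2 change of 2.66, and *LINC01411*, *LINC01204*, *MIR4527HG* and *SOX9-AS1* ran from 1.74 to 1.90. *SOX9-AS1* is antisense to other transcription and the strand setting of the counting was not given in the sources used here. *TNFAIP6*, a hyaluronan-binding protein of inflammation, read 1.38, 1.58 and 1.46 CPM in knockdown and 4.42, 5.07 and 4.89 in ΔRRM libraries, a log2 change of 1.71. The remaining genes of the rule, *IGLC2*, *TEX29*, *MEDAG* and *PBLD*, ran from 1.76 to 2.17, and *IGLC2* has near-identical neighbours among which reads could be split. By class, 201 of 1787 long non-coding RNAs were called higher (11.2%) and 86 lower (4.81%), against 395 (3.17%) and 361 (2.90%) of 12457 protein-coding genes.

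The knockdown had raised 118 genes (0.767% of 15391 tested) and lowered 121 (0.786%) against sgCTL. A knockdown gene was counted as undone where it was called in the opposite direction in ΔRRM against knockdown cells and was not called against sgCTL. By this rule 23 of the 118 raised genes (19.5%) and 45 of the 121 lowered genes (37.2%) were undone. A further 1 raised and 8 lowered genes moved past the sgCTL level and were called on its other side, 60 and 47 were not called in ΔRRM against knockdown, and 2 raised genes rose further. The other 32 and 21 genes had too few counts to be tested in both comparisons. All of those 32 were tested against knockdown and none against sgCTL, so they could be tested only through the knockdown libraries, and the 23 called lower are not counted as undone. With all 9 Rh30 libraries in 1 fit, 44 raised and 59 lowered genes were undone. Without knockdown replicate A, 193 genes were lowered in place of 121, and 89 of them were not called in ΔRRM against knockdown. The median log2 change of the 23 undone raised genes was 1.24 in knockdown and -0.12 in ΔRRM cells, both against sgCTL, and that of the 45 undone lowered genes was -1.32 and 0.09. These medians follow from the rule and are given as a description.

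Among the raised genes that were undone, *PPP1R15A* had the most counts of those named. It encodes GADD34, the phosphatase subunit that reverses phosphorylation of eIF2α in the stress response. It read 47.04, 46.9 and 42.8 CPM in sgCTL, 127, 119.6 and 119 in knockdown and 55.7, 54.2 and 50.005 in ΔRRM libraries. The ΔRRM values were all below knockdown and all above sgCTL, with a log2 difference of 0.24 (edgeR adjusted p = 0.00103). *HSPE1-MOB4*, a read-through transcript of the mitochondrial chaperonin gene *HSPE1* and its neighbour, read 0.221, 0.369 and 0.421 CPM in sgCTL, 2.69, 2.82 and 3.21 in knockdown and 0.593, 0.59 and 0.852 in ΔRRM libraries. It stayed 0.99 log2 above sgCTL (edgeR adjusted p = 0.0131), just under the fold required, and its exons overlap those of both genes. *NR1D1*, the clock repressor REV-ERBα, read 6.63, 5.15 and 4.97 CPM in sgCTL, 13.9, 13.6 and 11.8 in knockdown and 5.36, 4.53 and 5.11 in ΔRRM libraries. *DKK1*, a secreted inhibitor of Wnt signaling, read 16.1, 16.6 and 16.6 CPM in sgCTL, 29.1, 36.1 and 35.4 in knockdown and 16.4, 15.3 and 17.3 in ΔRRM libraries, and sgCTL and ΔRRM ranges overlapped. *HSPA6*, a stress-inducible HSP70, read 0.817, 0.841 and 0.885 CPM in sgCTL, 2.15, 2.62 and 1.92 in knockdown and 0.519, 0.685 and 0.82 in ΔRRM libraries. The small nucleolar RNAs *SNORA71B* and *SNORA5C* fell by 1.24 and 1.37 on the log2 scale against knockdown.

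The lowered genes that were undone included adhesion and signaling genes. *FXYD6*, a regulator of the sodium pump, read 3.49, 3.24 and 3.71 CPM in sgCTL, 1.12, 0.593 and 0.766 in knockdown and 4.08, 3.64 and 3.597 in ΔRRM libraries. *PLXNA4*, a semaphorin receptor, read 25.5, 24.2 and 24.3 CPM in sgCTL, 7.91, 6.01 and 6.92 in knockdown and 14.1, 16.7 and 18.7 in ΔRRM libraries. *FXYD6* overlapped sgCTL, whereas *PLXNA4* stayed below every sgCTL value, with -0.57 log2 against sgCTL (edgeR adjusted p = 9.65e-09). *LRRK1*, a kinase related to LRRK2, read 1.59, 1.56 and 1.62 CPM in sgCTL, 0.439, 0.346 and 0.335 in knockdown and 2.05, 2.502 and 1.99 in ΔRRM libraries. *ABTB3* read 5.94, 5.77 and 4.699 CPM in sgCTL, 1.57, 1.36 and 0.934 in knockdown and 4.45, 3.85 and 3.91 in ΔRRM libraries, and *TMCC3*, a membrane protein gene, read 3.42, 3.53 and 3.77 CPM in sgCTL, 1.26, 1.38 and 1.41 in knockdown and 4.15, 4.04 and 4.701 in ΔRRM libraries. The cadherin gene *CDH7* and the guanine nucleotide exchange factor gene *MCF2L* had log2 changes against knockdown of 1.55 and 1.17. *IGLC2*, named above, was also undone by the rule, though its ΔRRM libraries lay above sgCTL by 0.81 log2. In ES8 the same comparison gave 0.20 for *FXYD6*, 0.30 for *LRRK1* and -0.41 for *ABTB3*, and the line difference had edgeR adjusted p-values of 1.57e-06, 5.47e-06 and 3.31e-05.

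Keratin genes were raised by the knockdown and kept that level in ΔRRM cells. *KRT8* read 0.906, 0.8 and 0.59 CPM in sgCTL, 9.69, 9.34 and 6.798 in knockdown and 8.75, 7.34 and 9.34 in ΔRRM libraries. *KRT18*, its partner in simple epithelia, read 0.199, 0.246 and 0.232 CPM in sgCTL, 3.07, 3.56 and 2.01 in knockdown and 2.97, 2.31 and 3.06 in ΔRRM libraries. For both, knockdown and ΔRRM libraries overlapped, with log2 differences of -0.03 (SE 0.12) and -0.06 (SE 0.17). *SCG5*, a secretory granule protein gene, read 2.83, 2.504 and 2.57 CPM in sgCTL, 8.31, 9.99 and 9.46 in knockdown and 7.93, 5.81 and 6.91 in ΔRRM libraries, and *BCYRN1*, a brain cytoplasmic RNA, had a log2 difference between ΔRRM and knockdown of 0.15. Of the lowered genes, *CEP170B*, a centrosomal protein gene, read 14.3, 14.6 and 13.1 CPM in sgCTL, 5.28, 4.94 and 4.21 in knockdown and 5.63, 6.87 and 6.63 in ΔRRM libraries, and *ADGRA1* and *CEROX1* differed from knockdown by 0.58 and 0.56 log2. Others called unmoved lay close to the threshold. *SEMA6B* read 41.6, 40.8 and 37.2 CPM in sgCTL, 15.5, 14.8 and 12.1 in knockdown and 29.5, 23.6 and 30.98 in ΔRRM libraries, a log2 change of 0.98 against knockdown (edgeR adjusted p = 5.22e-15), and *RSRP1*, an arginine- and serine-rich protein gene, fell by 0.96 on the log2 scale. *TRIB2*, the last gene of the rule, had a log2 change of 0.87. *CXCL8*, the neutrophil chemokine, moved further: it read 3.58, 3.51 and 3.604 CPM in sgCTL, 9.81, 9.52 and 11.4 in knockdown and 21.4, 19.9 and 21.6 in ΔRRM libraries.

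**Figure D2:**
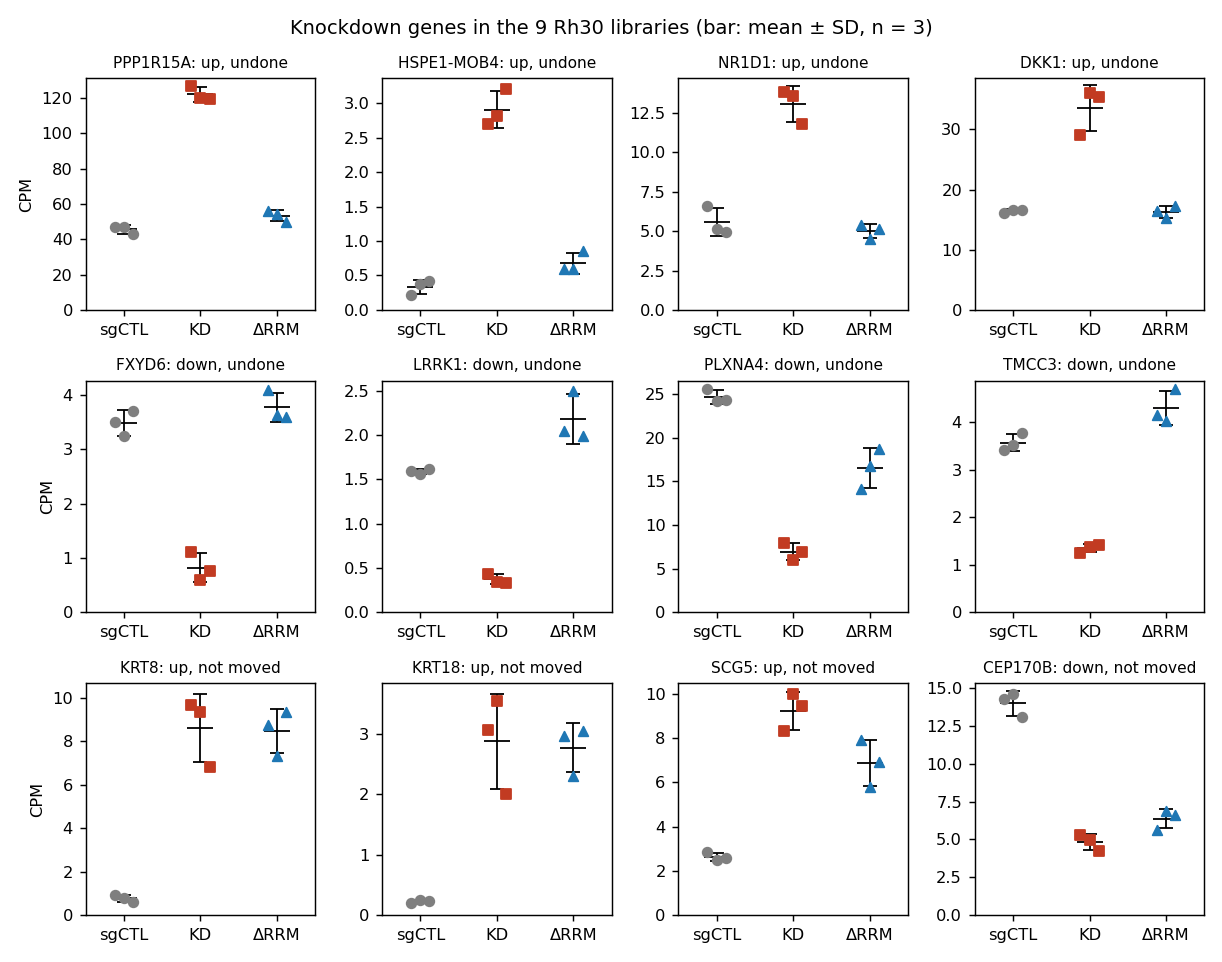
CPM of 12 knockdown genes in the 9 Rh30 libraries, with sgCTL in grey, knockdown (KD) in red and ΔRRM in blue; points are libraries and bars the mean and SD of 3. In the panels titled undone, ΔRRM values of *PPP1R15A*, *NR1D1*, *DKK1* and *FXYD6* lie near sgCTL, whereas *KRT8*, *KRT18* and *CEP170B* stay near knockdown.

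Genes called in the ES8 knockdown give a choice of knockdown genes that shares no library with the Rh30 comparison. Of 285 genes raised in ES8 (1.66% of 17143 tested), 146 were tested in Rh30, and 45 of them (30.8%) were called lower in Rh30 ΔRRM than in Rh30 knockdown cells, against 3.36% of all genes. The reverse call was made for 1 gene. Their median log2 change was -0.52, and 29 of the 45 were not protein-coding. They included *PPP1R15A*, the bile acid conjugating enzyme gene *BAAT*, *FOSB* and several small nucleolar RNAs. Of 49 genes lowered in ES8 (0.286%), 48 remained beside *DNAJC17* itself, of which 23 were tested in Rh30, with 2 called higher and 2 lower. Where at least 10 counts were required in every library, the number called lower was 13 in place of 45. Over all genes, 301 of 13987 tested were then called lower. How many ES8-chosen genes were tested under that requirement was not counted, so the 13 has no share to set beside the 30.8%. Genes of few counts could be tested in Rh30 only through the knockdown libraries.

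Small nucleolar RNAs guide chemical modification of ribosomal RNA, and most lie in introns of host genes. Several were higher in knockdown and lower again in ΔRRM cells. Of 761 annotated such RNAs and related Cajal body RNAs, 28 had enough counts to be tested, 10 of them called lower in ΔRRM than in knockdown cells (3.36% of all genes) and 1 higher (4.42%). In knockdown against sgCTL, 10 were called higher (0.767% of all genes) and 0 lower. Members with few counts, such as *SNORD14E*, could be tested only through the group where they are high, so these counts are a description and carry no support for a direction. *SNORA5A* read 0.619, 1.07 and 0.358 CPM in sgCTL, 1.85, 2.57 and 1.795 in knockdown and 0.766, 0.448 and 0.505 in ΔRRM libraries. *SNORD14E* held 2, 2 and 0 counts in sgCTL, 18, 42 and 18 in knockdown and 0, 2 and 1 in ΔRRM libraries. *SCARNA12* was an exception, at 0.353, 0.267 and 0.421 CPM in sgCTL, 0.658, 1.11 and 0.79 in knockdown and 0.642, 0.944 and 0.726 in ΔRRM libraries, where ΔRRM libraries stayed near knockdown. Libraries were made from polyadenylated RNA. These counts are low, for a cause that was not tested, and reads of unspliced host transcripts would be counted on the same bases. The study listed transcripts that rose in both lines, a choice made on these samples and so no independent evidence of direction. Of 14 of them taken here, which leave out long non-coding transcripts of that list known only by clone names, 12 were tested in Rh30 and 10 were called lower in ΔRRM than in knockdown cells, against 3.36% of all genes. They included *INO80B-WBP1*, a read-through transcript, at 0.331, 0.349 and 0.169 CPM in sgCTL, 1.096, 1.11 and 1.46 in knockdown and 0.297, 0.33 and 0.0315 in ΔRRM libraries, and *DCAF4L1* at 0.287, 0.369 and 0.4 CPM in sgCTL, 1.63, 1.75 and 1.75 in knockdown and 0.297, 0.33 and 0.663 in ΔRRM libraries. The exceptions were *SCARNA12* and *OVGP1*, at a log2 change of -0.67 (edgeR adjusted p = 0.178).

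The integrated stress response runs from phosphorylated eIF2α through the transcription factor ATF4 to genes of amino acid supply and to *PPP1R15A*. Its members did not move together in ΔRRM cells. Of 18 tested, 2 were called lower and 0 higher, against 3.36% and 4.42% of all genes. By the adjusted p alone 8 were lower and 5 higher, against 30.5% and 29.4% of all genes. *ATF4* read 213, 220.1 and 212 CPM in sgCTL, 295, 323 and 322 in knockdown and 282, 277 and 276 in ΔRRM libraries, a log2 difference between the last groups of -0.17 (edgeR adjusted p = 0.0556). *DDIT3*, the ATF4 target CHOP, read 35.6, 39.2 and 35.6 CPM in sgCTL, 47.4, 53.02 and 55.1 in knockdown and 59.9, 59.6 and 62.9 in ΔRRM libraries and was thus not lower than in knockdown. *SLC3A2*, a subunit of amino acid exchangers, fell from 316, 318 and 276 CPM in knockdown to 153, 143 and 141 in ΔRRM libraries, below the sgCTL values of 208, 199.8 and 199.5. Its partner *SLC7A5*, which forms the leucine exchanger LAT1, read 426, 393 and 394 CPM in sgCTL, 588, 518 and 440.2 in knockdown and 199, 199 and 197 in ΔRRM libraries, a log2 change of -1.38 (SE 0.08). *SLC3A2* was not called after the correction for GC content and length given with the length values. The serine transporter gene *SLC1A4* fell by 1.25 on the log2 scale. These 2 were the called members among 18 amino acid genes, whereas the serine synthesis genes *PSAT1* and *PSPH* were at 0.54 and 0.45. Of 21 genes of the endoplasmic reticulum unfolded protein response none was called, with 4 higher and 11 lower by the adjusted p alone, and of 19 heat shock genes 1 was called, *HSPA1L*, higher at under 1 CPM in every library. That list does not hold *HSPA6*, which was called lower as given above.

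Immediate early genes and targets of the Hippo pathway were lower in ΔRRM cells. Immediate early genes encode AP-1 and EGR transcription factors that growth factors induce within minutes. Of 26 tested, 5 were called lower and 0 higher, against 3.36% and 4.42% of all genes. By the adjusted p alone 19 were lower and 2 higher, against 30.5% and 29.4%, with a median of -0.49. *EGR1* read 10.7, 8.93 and 9.06 CPM in sgCTL, 12.5, 10.3 and 10.5 in knockdown and 3.76, 2.62 and 3.34 in ΔRRM libraries, a log2 change of -1.78 (SE 0.13). *FOSL1*, an AP-1 subunit, read 70.9, 71.5 and 65.7 CPM in sgCTL, 122, 117 and 106 in knockdown and 53.1, 51.3 and 48.5 in ΔRRM libraries, so that it was highest in knockdown and lay below sgCTL in ΔRRM cells. *FOS*, *FOSB* and *NR4A3* fell by 1.30, 1.64 and 1.23 on the log2 scale, while *JUNB* (-0.05, edgeR adjusted p = 0.596) and *MYC* (-0.17) differed little. YAP and TEAD activate genes of growth and adhesion when Hippo kinases are inactive. Of 25 targets, 4 were called lower and 0 higher, and 22 were lower and 1 higher by the adjusted p alone, with a median of -0.62, against 0.03 in ES8. *AMOTL2*, a feedback inhibitor of YAP, read 115, 110.1 and 113 CPM in sgCTL, 195, 179 and 166 in knockdown and 74.6, 70.3 and 68.9 in ΔRRM libraries. *GADD45B* read 34.3, 32.6 and 31.8 CPM in sgCTL, 58.2, 59.1 and 55.1 in knockdown and 28.4, 27.8 and 26.2 in ΔRRM libraries, and *NUAK2*, a kinase gene, was at a log2 change of -1.01. *TGFB2*, described above, was the fourth.

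Receptor, growth factor and matrix genes were mostly lower. Of 32 receptor tyrosine kinase and ligand genes, 3 were called lower and 0 higher, and 21 were lower and 0 higher by the adjusted p alone. Over all genes, 3.36% were called lower and 4.42% higher, and 30.5% and 29.4% by the adjusted p alone, which holds for each count here. *FGF2*, a fibroblast growth factor, read 7.09, 6.98 and 6.26 CPM in sgCTL, 10.3, 10.6 and 8.64 in knockdown and 4.47, 4.89 and 3.38 in ΔRRM libraries. *EFNB2* and *EPHA4*, an ephrin and an ephrin receptor, were at log2 changes of -1.46 and -1.02. In the insulin-like growth factor axis, the adaptors *IRS1* and *IRS2* and the protease *PAPPA* were called lower among 14 genes. *IRS1* read 101, 89.6 and 94.6 CPM in sgCTL, 125, 108 and 97.6 in knockdown and 45.3, 47.8 and 49.8 in ΔRRM libraries. Of 43 collagen, matrix and integrin genes, 4 were called lower and 2 higher, with 29 lower and 4 higher by the adjusted p alone. *THBS1*, which encodes thrombospondin 1, read 689, 597 and 629 CPM in sgCTL, 805, 684 and 607 in knockdown and 255, 268 and 269 in ΔRRM libraries, and *COL5A1*, a fibrillar collagen gene, read 352, 318 and 303 CPM in sgCTL, 317, 270.3 and 241 in knockdown and 111, 113 and 126 in ΔRRM libraries. *FBN1* and *COL1A2* were at -1.22 and -2.49 log2, while *LUM* and *ITGB8* were called higher at levels under 2 CPM. Of 30 Notch, Wnt and hedgehog genes, 2 were called lower and 1 higher, with 17 lower and 2 higher by the adjusted p alone. Among those lower, *GLI2*, a transcription factor of hedgehog signaling, read 13.1, 11.4 and 11.7 CPM in sgCTL, 12.5, 11.1 and 9.53 in knockdown and 3.09, 3.54 and 3.88 in ΔRRM libraries. Against sgCTL, the medians of the receptor and matrix lists were -0.17 and -0.20 in knockdown and -0.59 and -0.61 in ΔRRM cells. Members of these 2 lists have long exons, with medians of 6944 and 6873 bases for receptors and matrix genes. After correction of each library for GC content and length, the list medians were -0.21 and -0.16 in place of -0.39 and -0.36, and *IRS1*, *IRS2*, *PAPPA*, *COL5A1*, *FBN1* and *EPHA4* were no longer called.

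Genes of ribosomes, respiration and the proteasome were higher in ΔRRM cells, mostly by less than 2-fold. Of 85 genes matched as cytosolic ribosomal proteins, among them a few related genes such as *RPS27L*, 11 were called higher and 0 lower, and 78 were higher and 1 lower by the adjusted p alone, against 4.42%, 3.36%, 29.4% and 30.5% of all genes. *RPS21* read 619, 762 and 796 CPM in sgCTL, 708, 927 and 858 in knockdown and 2203, 1880.4 and 2489 in ΔRRM libraries, with no overlap. Ribosomal protein genes have many processed pseudogenes, which the counting could have split reads with. Of 74 nuclear-encoded respiratory chain genes, 9 were called higher and 0 lower, and 65 were higher and 3 lower by the adjusted p alone, with a median of 0.70. *COX7A2*, a subunit of cytochrome c oxidase, read 47.04, 55.1 and 53.9 CPM in sgCTL, 51.8, 62.9 and 66.8 in knockdown and 139.6, 121 and 154 in ΔRRM libraries. The 13 protein genes of the mitochondrial genome went the other way, with 0 called and 8 lower and 0 higher by the adjusted p alone. Their median was -0.26, and in ES8 it was lower still, at -0.62. Of 31 proteasome genes, 3 were called higher and 0 lower, and *PSMA5* read 255, 294 and 299.9 CPM in sgCTL, 288, 345 and 358 in knockdown and 698, 656 and 771 in ΔRRM libraries. The medians over the lists, 0.63 for ribosomal, 0.70 for respiratory and 0.47 for proteasome genes, had ES8 counterparts of -0.13, -0.03 and 0.06. Against sgCTL, the same Rh30 medians were 0.34, 0.19 and 0.17 in knockdown and 1.01, 0.94 and 0.72 in ΔRRM cells. These lists thus lay further from sgCTL in ΔRRM than in knockdown cells.

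**Figure D3:**
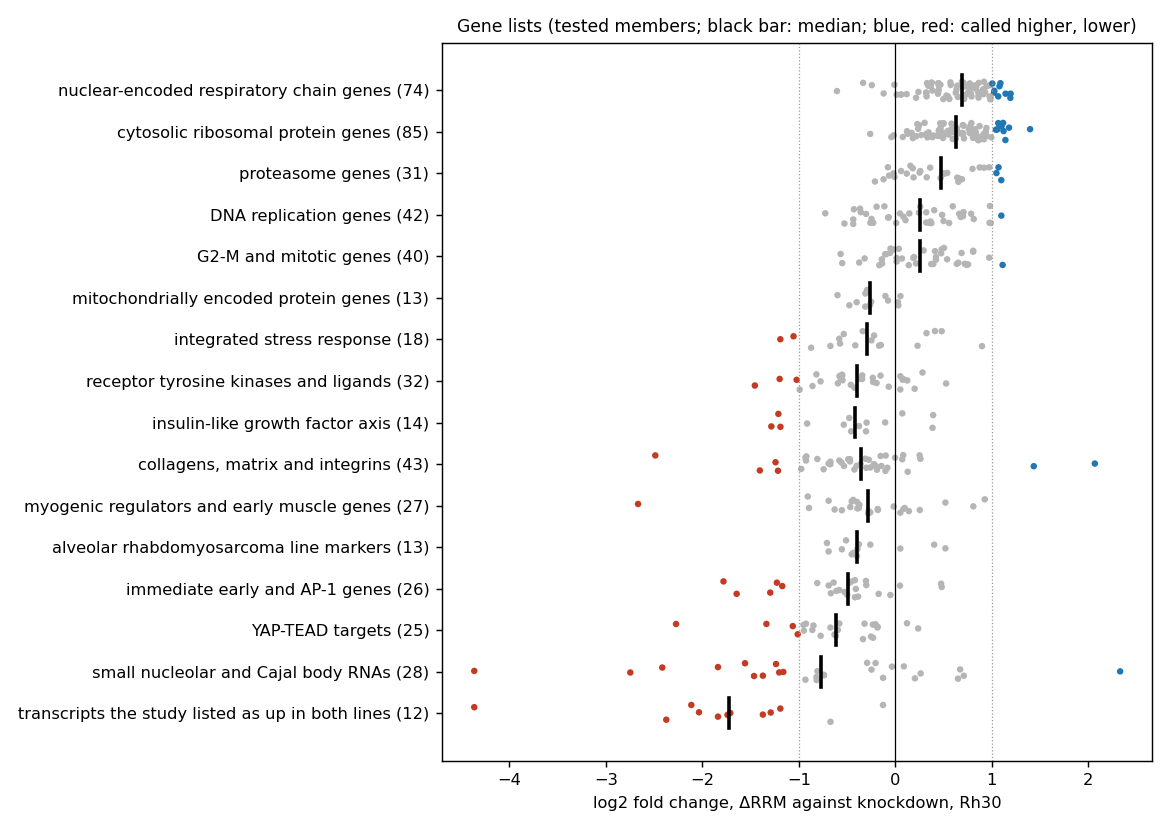
Log2 fold change of ΔRRM against knockdown in Rh30 for the tested members of 16 gene lists, with the number tested in brackets, called genes in colour, the median as a black bar and the 2-fold limits dotted. Respiratory, ribosomal and proteasome genes lie mostly to the right, and YAP-TEAD targets mostly to the left.

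These lists differ in length, and so did the libraries in their response to it. Over 5 equal groups of tested genes by exonic length, the median log2 change ran from 0.27 in the shortest to -0.19 in the longest, and by GC content from 0.19 in the lowest to -0.19 in the highest. In ES8 the same medians lay between -0.03 and 0.04. In the Rh30 knockdown against sgCTL they ran from 0.12 to -0.11 by length and from 0.12 to -0.17 by GC content. With each library corrected for GC content and length, the median of ribosomal genes was 0.54, with 10 called higher, that of respiratory genes 0.53, with 3, and that of proteasome genes 0.28, with 2. Scaled by library size alone, the medians were 0.47, 0.53 and 0.31, with 2, 2 and 0 called higher. The directions held under both, and the part of length and GC content in the result was otherwise not tested.

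**Figure D4:**
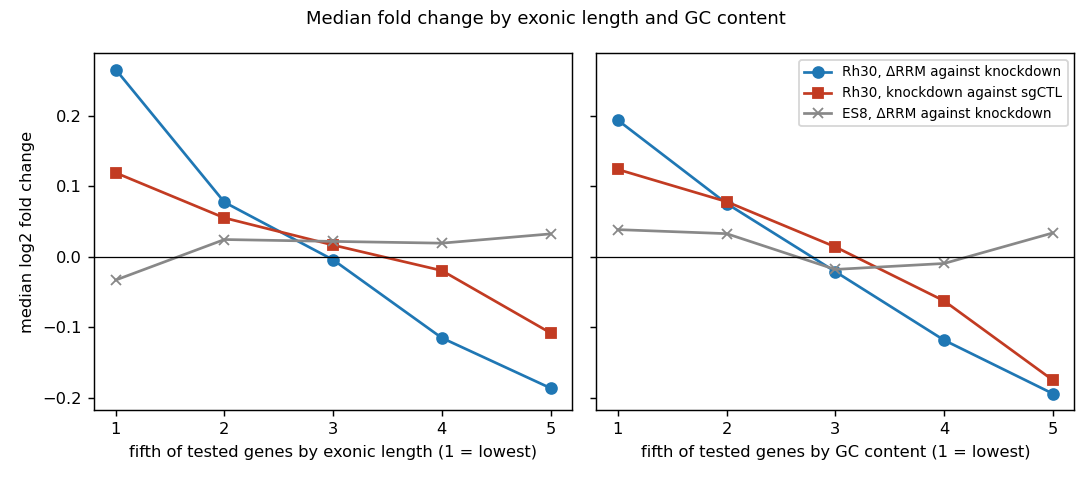
Median log2 fold change over 5 equal groups of tested genes by exonic length (left) and GC content (right). The line of Rh30 ΔRRM against knockdown runs from 0.27 to -0.19 by length and from 0.19 to -0.19 by GC content, while that of ES8 stays between -0.03 and 0.04.

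Cell cycle and splicing genes differed mostly by less than 2-fold. Of 40 genes of G2-M and mitosis, 1 was called higher and 0 lower, near or under the 4.42% and 3.36% of all genes, with 23 higher and 4 lower by the adjusted p alone, against 29.4% and 30.5%, and a median of 0.25. The called gene was *HMMR*, a spindle protein gene, at 45.5, 50.7 and 48.6 CPM in sgCTL, 41.6, 44.1 and 52.5 in knockdown and 87.05, 109.9 and 102 in ΔRRM libraries. Of 42 DNA replication genes, *PCNA*, the sliding clamp of DNA polymerases, was called higher, at 280.4, 310.3 and 313 CPM in sgCTL, 270.5, 309 and 329 in knockdown and 634, 616 and 697 in ΔRRM libraries. Their log2 changes in knockdown against sgCTL were -0.07 and 0.01, and both lost the call after the correction for GC content and length. Of 37 spliceosome genes of the PRP19, U5 and tri-snRNP complexes and 43 genes of SR and hnRNP proteins, edgeR called 0, and by the adjusted p alone 10 and 8 were higher and 15 and 22 lower. Of the genes with exons skipped in knockdown cells of both lines, the study named those in the sets of its enrichment analysis. They are a part of the skipped genes it counted. Of 7 tested, 0 were called, and 5 were higher by the adjusted p alone: *GINS1*, a subunit of the replicative helicase, read 85.9, 88.4 and 90.03 CPM in sgCTL, 97.02, 107 and 113 in knockdown and 143, 148 and 153 in ΔRRM libraries, and *AURKB*, a mitotic kinase, read 179, 195 and 188 CPM in sgCTL, 182, 192 and 187 in knockdown and 273, 244 and 265 in ΔRRM libraries. Counts per gene hold no information on exon use.

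Rh30 carries a muscle program, and the summed level of its markers was lower in ΔRRM than in knockdown libraries. Of 13 of 14 line markers tested, edgeR called 0, and 10 were lower and 2 higher by the adjusted p alone, against 30.5% and 29.4% of all genes. Their summed level was 4679 to 4777 CPM in sgCTL, 4157 to 4449 in knockdown and 3035 to 3332 in ΔRRM libraries. In bulk RNA, fewer cells of a type and less RNA per cell cannot be told apart. *MYOD1*, the master regulator of myogenesis, read 917, 924 and 867 CPM in sgCTL, 848, 845 and 788 in knockdown and 643, 577 and 614 in ΔRRM libraries, a log2 change of -0.44 against knockdown. *TFAP2B*, the marker not tested, was at 0 in every library. *MYMX* and *CHRND* had been lowered by the knockdown and lay between knockdown and sgCTL in ΔRRM cells, unlike *MYMK*, which lay below both. *MYMX*, the fusion partner of *MYMK*, read 22.8, 23.7 and 25.4 CPM in sgCTL, 11.4, 10.4 and 10.3 in knockdown and 20.9, 19.02 and 21.3 in ΔRRM libraries, and the acetylcholine receptor subunit *CHRND* read 78.2, 74.05 and 75.2 CPM in sgCTL, 35.98, 34.8 and 32.7 in knockdown and 49.9, 47.6 and 50.9 in ΔRRM libraries. Neither reached a 2-fold change against knockdown, with log2 changes of 0.93 and 0.52 (edgeR adjusted p = 7.24e-14 and 6.03e-08). Of 36 sarcomere genes, *MYBPH*, *LDB3* and *SLN* were called lower, and *CSRP3* and *MYOM2* higher, against 3.36% and 4.42% of all genes. By the adjusted p alone 14 were lower and 6 higher. *MYBPH*, a myosin-binding protein gene, read 12.9, 14.2 and 12.6 CPM in sgCTL, 13.9, 12.1 and 11.6 in knockdown and 3.41, 3.09 and 3.597 in ΔRRM libraries.

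Markers of other cell types summed to less than the Rh30 line markers. Those of the Ewing sarcoma line, 6 of 16 tested, had 2 called lower in ΔRRM than in knockdown cells. They summed to 699 to 715 CPM in sgCTL, 769 to 859 in knockdown and 530 to 568 in ΔRRM libraries. The epithelial markers, 14 of 24 tested, summed to 250.2 to 268 CPM in sgCTL, 271 to 296 in knockdown and 316 to 349.7 in ΔRRM libraries, with 1 called lower in ΔRRM cells. Immune markers summed to at most 2.61 CPM in sgCTL and 2.18 in ΔRRM libraries. Fibroblast and endothelial markers ran from 299 to 328 CPM in knockdown and 259 to 271 in ΔRRM libraries. Their part in the results was not tested. *OAS3*, an interferon-stimulated gene, read 26.03, 22.6 and 23.1 CPM in sgCTL, 29.3, 27.95 and 23.1 in knockdown and 7.66, 8.36 and 7.26 in ΔRRM libraries. It does not stand for its list. Among 36 interferon-stimulated genes 3 were called higher, *IFI44L*, *IFITM1* and *ISG20*, and 2 lower, against 4.42% and 3.36% of all genes. The list median was 0.02.

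Some changes lay side by side on a chromosome. On chromosome 7, 33 tested genes in a row, from *RADIL* to *CCZ1B* (4797055 to 6826770, GRCh38), had a log2 change below 0 in ΔRRM against knockdown cells, the longest such row on any chromosome. It was found by its values and gets no test. DNA copy number was not measured, and its part in the values of these genes was not tested. The median over the row was -1.02, and 17 of the 33 were called lower, against 3.36% of all genes. The 10 tested genes before it had a median of -0.28 and the 10 after it 0.38, with 0 called lower on either side. The same 33 genes had a median of 0.25 in knockdown against sgCTL, and 31 of them a median of -0.05 in ES8 ΔRRM against knockdown. *RAC1*, a GTPase of actin dynamics, read 498, 501 and 503 CPM in sgCTL, 675, 682 and 658 in knockdown and 276, 272 and 279 in ΔRRM libraries. *USP42*, a deubiquitinase gene, read 41.3, 38.9 and 37.9 CPM in sgCTL, 47.2, 42.96 and 41.2 in knockdown and 13.9, 13.9 and 11.9 in ΔRRM libraries. *ZNF853*, among the largest decreases of all, lies in the row. *ACTB*, often used as a reference gene, lies there too and was at -0.56 log2 (edgeR adjusted p = 1.08e-07). Over 256 windows of 10 Mb with at least 20 tested genes, 118 genes at 130 to 140 Mb of chromosome 9 had the lowest median, -0.64. Of these, 23 were called lower and 0 higher, against 3.36% and 4.42% of all genes, and *MYMK* and *COL5A1* lie in the window. That window had a median of -0.04 in knockdown against sgCTL and 0.02 in ES8.

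**Figure D5:**
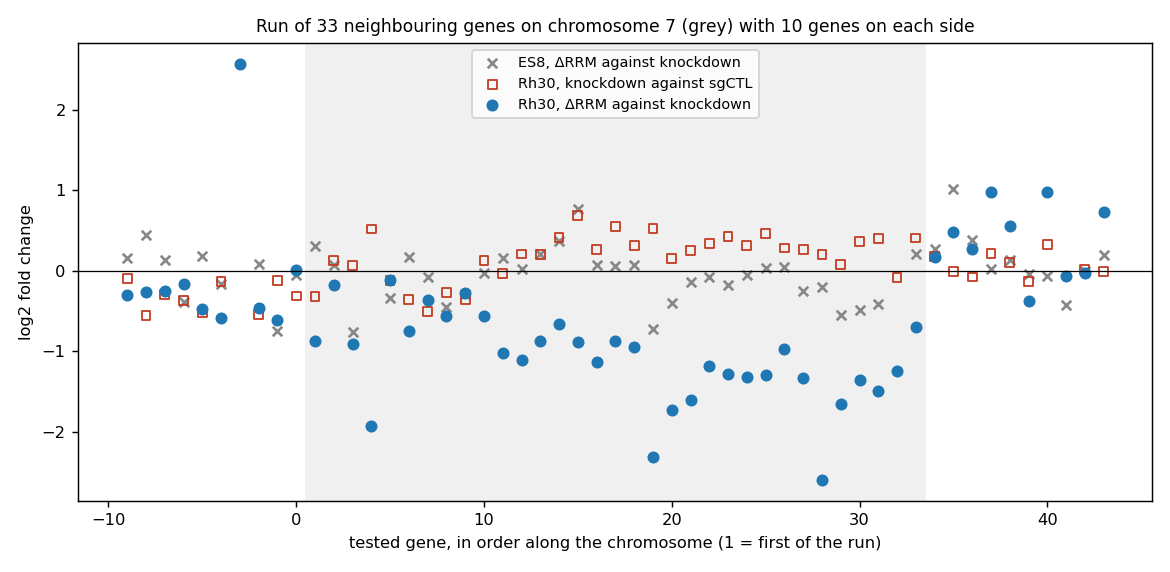
Log2 fold change of tested genes in order along chromosome 7, with the row of 33 genes shaded and 10 genes on each side. Blue points, ΔRRM against knockdown in Rh30, lie below 0 throughout the row, whereas knockdown against sgCTL (red squares) lies mostly above 0, with a median of 0.25, and ES8 (grey crosses) has a median of -0.05.

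The change from knockdown to ΔRRM cells differed between the lines for 1165 of 18812 genes (6.19%), tested as an interaction at an edgeR adjusted p under 0.05 and a difference of at least 2-fold. *ANXA4*, an annexin gene, was called higher in Rh30, at 9.47, 8.503 and 8.83 CPM in knockdown and 22.1, 21.4 and 21.8 in ΔRRM libraries. Its log2 change in ES8 was -1.57, on low counts of 44, 39 and 43 in knockdown and 17, 14 and 17 in ΔRRM libraries. *ING4*, a chromatin reader gene, read 10.5, 11.9 and 12.5 CPM in sgCTL, 10.6, 11.4 and 12.8 in knockdown and 30.1, 30.2 and 32.97 in ΔRRM libraries in Rh30, and its log2 change in ES8 was -0.51. *PPP1R15A* was lower in ΔRRM than in knockdown cells of both lines, with log2 changes of -1.19 and -0.83, and the interaction gave an edgeR adjusted p of 0.0166 with a difference under 2-fold.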

How the data were processed

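RNA was sequenced from 18 libraries of 2 lines. The authors deposited raw counts, the whole number of reads on each of 57500 genes per library. Per the submitters' processing notes in the labels, the tools were Trimmomatic 0.36, STAR 2.5.2b and featureCounts of Subread 1.5.2 on GRCh38, after poly-A selection. The paper names an older build, but 85.3% of 18942 genes lay within 1 kb of their GRCh38 position. The strand setting was not given in the sources used here. Library totals ran from 35342393 to 48245989 counts, so counting error is small for all but low genes.

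The counts of the 6 libraries compared, or of 12 for the line difference, were analysed by the quasi-likelihood test of edgeR 4.0.16 (R 4.3.3) with TMM, filterByExpr and Benjamini-Hochberg adjustment. Calls required both an adjusted p below 0.05 and at least a 2-fold difference. Tables and figures used Python 3.11.15. On simulated data for ΔRRM against knockdown, 200 of 200 genes changed by 2 on the log2 scale were recovered among 15313 tested, with 0 false calls. The simulation gave all genes the same dispersion, changed only well-counted genes, equally in both directions, and left all others unchanged. It thus checks the code and does not measure the error rate in these data. Alternatives were DESeq2 1.42.0, other scalings, filters and thresholds, a single fit of all libraries of a line, a block on the replicate letter, a lowess correction for GC content and exonic length, and leaving out each library. The main fits did not pair samples by letter. Same-letter deviations of ΔRRM and knockdown libraries correlated at -0.01, -0.06 and 0.02 across genes, against -0.05 to 0.07 for different letters. Those of knockdown and sgCTL libraries correlated at 0.20, 0.07 and 0.10, against -0.13 to 0.04 for different letters. In that comparison each letter correlated best with itself, so a pairing there was not excluded. Not every pair passed 0.1, the limit used.

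The comparison, the 47 gene lists and the rule for named genes were chosen with earlier results of these data known, so list counts are descriptions and were not tested. Named genes were *DNAJC17* and its neighbours under 50 kb, the 12 strongest called changes each way with a mean of at least 100 counts, called members of lists with the smallest p (up to 5 each way) and members a paragraph turns on. They also included the 8 undone and 5 unmoved knockdown genes changed most by the knockdown each way at a mean of at least 50 counts, genes of the study's 2 lists and the 5 smallest p each way of the line difference. *CXCL8* and the genes of the chromosome 7 row were named after their values were seen. Symbols were found for 40373 genes. Splicing was not analysed here.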

Additional observations from a re-analysis of the deposited data

Results flagged for a closer look

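Groups held 3 libraries, too few for a test of single outlying libraries. The difference between lines in the change from knockdown to ΔRRM cells passed its own test, the interaction in edgeR, for 1165 genes. The genes with the smallest p, given as the Rh30 minus the ES8 log2 change, were *ANXA4* at 2.83, *PKIB* at 2.32, *PDE1A* at 2.18, *ING4* at 1.92 and *CHMP1B* at 1.27 among those higher in Rh30. Among those lower in Rh30 they were *ZNF853* at -2.42, *GPM6B* at -2.22, *LIMCH1* at -1.999, *OAS3* at -1.96 and *SERPINE2* at -1.79. In all 10 the Rh30 ΔRRM libraries did not overlap the Rh30 knockdown libraries, a description of genes that were chosen by their values. The cause of these differences was not tested.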

How the results depend on the processing

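None of the called named genes changed sign under the alternatives run. With library size alone the medians of heat shock, DNAJ, p53, histone and interferon-stimulated genes passed from above to below 0. With the correction for GC content and length those of heat shock, histone and interferon-stimulated genes did so too, and those of glycolysis, neuropeptide and 12q13-q15 genes passed from below to above 0. For 191 named genes refitted 3083 times, 2858 refits kept the call or its absence, 186 lost it and 39 gained it. The correction for GC content and length ended 34 calls, among them *SLC3A2*, *HMMR*, *PCNA*, *IRS1*, *IRS2*, *COL5A1*, *NUAK2*, *CXCL8*, *COX7A2* and *PSMA5*, and library size alone ended 32, mostly of ribosomal, respiratory and proteasome genes. The replicate block gave 678 genes higher and 519 lower, 22 and 48 knockdown genes undone and a line difference of 1054, and it changed no count by over 1.5 times. For knockdown against sgCTL, where each letter correlated best with itself, a hint from the data and not the design, it gave 130 raised and 137 lowered genes. Library size alone gave 391 higher and 850 lower. Without a fold requirement there were 4505 higher and 4676 lower, 2473 knockdown genes raised and 2501 lowered, 326 and 263 undone, 706 and 917 unmoved, 930 ES8-chosen genes lower and 5326 differing between lines. Requiring 10 counts in every library gave 301 lower, 48 and 75 knockdown genes, 14 raised genes undone and 25 unmoved, 13 ES8-chosen genes and 762 between lines, with fewer genes tested. With no filter there were 188 raised knockdown genes, 64 undone and 119 unmoved, and 94 unmoved lowered genes. DESeq2 gave 62 raised knockdown genes and 34 unmoved, an adjusted p below 0.01 gave 67 raised, 78 lowered and 32 raised unmoved, and 1 fit of all 9 libraries gave 44 raised genes undone; the cause was not tested. Leaving out each library gave 600 to 877 higher, 480 to 598 lower, 102 to 193 lowered knockdown genes and 37 to 89 lowered genes unmoved, the highest of these last 2 without knockdown replicate A. Low counts limit the small nucleolar RNAs most.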
